A study of Mus musculus with 6 samples.

Results

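The miR-221/miR-222 cluster is a pair of neighbouring hairpins, Mir221 and Mir222, each of which yields a 3p and a 5p mature microRNA. The members were the rows of the deposited count table named miR-221 or miR-222 with an arm suffix, that is mmu-miR-221-3p, mmu-miR-221-5p, mmu-miR-222-3p and mmu-miR-222-5p, 4 of the 1028 mature microRNAs in the table. All 4 passed the filter on low counts, which 460 microRNAs passed in all. The cells were a mouse epicardial cell line, from the outer layer of the heart, grown in high-glucose medium with serum. The EV group (3 libraries) received an empty-vector lentivirus and the KO group (3 libraries) a lentivirus with a guide RNA against Hdac3, a histone deacetylase of repressor complexes, for knockout with CRISPR/Cas9. Both groups were therefore transduced, and the labels do not say whether the KO cells were 1 clone or a pool, or whether replicates were separate cultures. P-values thus measure the spread between these libraries, which may be technical. Small-RNA libraries hold no Hdac3 mRNA, so the knockout was not checked.

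A microRNA hairpin is cut from a longer transcript by Drosha and then by Dicer, and 1 strand of the resulting duplex is usually kept in an Argonaute protein while the other is degraded. The kept strand finds its target mRNAs mainly through its seed, bases 2 to 8 from the 5′ end. miR-221-3p and miR-222-3p are known as repressors of the cell-cycle inhibitor Cdkn1b (p27) and of the receptor kinase Kit. In vessels they are known to favour proliferation of smooth-muscle cells, a cell type that the epicardium also gives rise to.

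The mature sequences are shown because both 3p arms share a seed while their 3′ parts differ, which lets reads of the 2 arms be told apart. They are RefSeq sequences on GRCm38.p6, which held 3 of the 4 members (all but miR-222-5p), with the seed in capitals:
miR-221-3p: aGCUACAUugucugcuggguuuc
miR-222-3p: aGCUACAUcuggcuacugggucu
miR-221-5p: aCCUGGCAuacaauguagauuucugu

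Aligned from their 5′ ends, the 3p arms matched at 11 of 23 positions, and the first 8 bases were the same in both. The seed of miR-221-5p was found in 0 other mature mouse microRNAs of the RefSeq table. The seed of the 3p arms was found in 1 microRNA besides them, miR-1928, which was not analysed here.

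The hairpins are shown to place the arms in their precursors, with the mature arms above in capitals (both arms of Mir221, the 3p arm of Mir222):
Mir221: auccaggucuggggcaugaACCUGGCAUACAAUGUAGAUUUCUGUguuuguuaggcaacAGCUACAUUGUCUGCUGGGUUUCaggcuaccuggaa
Mir222: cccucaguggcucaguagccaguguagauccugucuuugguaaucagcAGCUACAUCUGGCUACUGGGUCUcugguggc

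Chromosome X carries both hairpins on its minus strand (GRCm38), Mir221 at 19146294 to 19146388 and Mir222 at 19146893 to 19146971, with 504 bases between them. Mir222 comes first in the direction of transcription. The GENCODE M21 annotation places no other gene over either hairpin, so both are intergenic there. The nearest gene, the noncoding Gm14636 (19156981 to 19167241), lies upstream of Mir222 on the same strand, with 10009 bases between Mir222 and its 3′ end. The nearest other X-linked microRNA hairpin in the RefSeq table, Mir5617, is 1716154 bases away. Folded with RNAfold, Mir221 (95 bases) had a minimum free energy of -42.8 kcal/mol and Mir222 (79 bases) of -40.7 kcal/mol, and 21 of the 23 bases of miR-221-3p and 19 of the 23 bases of miR-222-3p were paired.

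Between 11824881 and 13412774 reads were counted per library. Levels are given as CPM, the count per 1000000 after each total is multiplied by a TMM factor that aligns the bulk of the microRNAs, from 0.919 (EV 3) to 1.23 (EV 1). A single read was worth 0.0637 to 0.0892 CPM. miR-21a-5p alone took 63.0% to 70.1% of the counts of a library. EV 3 and KO 2 stood apart by miR-451a, a microRNA of red blood cells, with 54.7 and 62.7 CPM against at most 2.45 elsewhere. Marker microRNAs gave mesenchymal sums (5 of 5 listed microRNAs in the table) of 79641 to 80820 CPM in EV and 83493 to 89165 in KO, and endothelial sums (2 of 2) of 36.6 to 42.1 and 34.7 to 35.4. The mesenchymal sum was mostly miR-143-3p (mean 75295 CPM). The median log2 change of its 5 markers was -0.09, with 2 of them above 0. Of these 5, 0 were called by edgeR, where 7.61% of all tested microRNAs were. Epithelial sums (5 of 5) were 41.4 to 50.0 in EV and 25.3 to 27.3 in KO. Of 4 tested epithelial markers miR-200b-3p (log2 change -0.80) and miR-200a-3p (-0.88) were called lower by edgeR. Over all 460 tested microRNAs 12 were called lower. The other sums were, in EV and KO, cardiac-muscle sums (3 of 5) 0.892 to 1.34 and 1.83 to 2.51, blood sums (6 of 6) 8.73 to 68.2 and up to 78.1, and neural sums (2 of 2) 11.3 to 52.1 and 15.2 to 57.8. None of these markers in the table was at 0 in every library, and miR-208a-3p and miR-208b-3p of heart muscle were not analysed here. The part of these markers in the results below was not tested, other than by leaving out EV 3 and KO 2.

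Values per library are given below in the order of replicates 1, 2 and 3. The question was whether the arms of the cluster differ between KO and EV cells. All 4 arms were higher on average in KO, by 1.18-fold to 1.30-fold, and none of them was called by edgeR's quasi-likelihood test at a Benjamini-Hochberg adjusted p under 0.05. Over all 460 tested microRNAs 7.61% were called, 5.00% as higher in KO. At an unadjusted p under 0.05, 1 of the 4 arms was higher, miR-221-3p, where 12.6% of all tested microRNAs were. The log2 changes of the arms ran from 0.24 to 0.38 with a median of 0.30, against a median of -0.01 over all tested microRNAs. The 4 arms come from 2 hairpins that lie side by side and are not independent. In such bulk samples fewer cells of a type and less RNA per cell cannot be told apart.

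**Figure D1:**
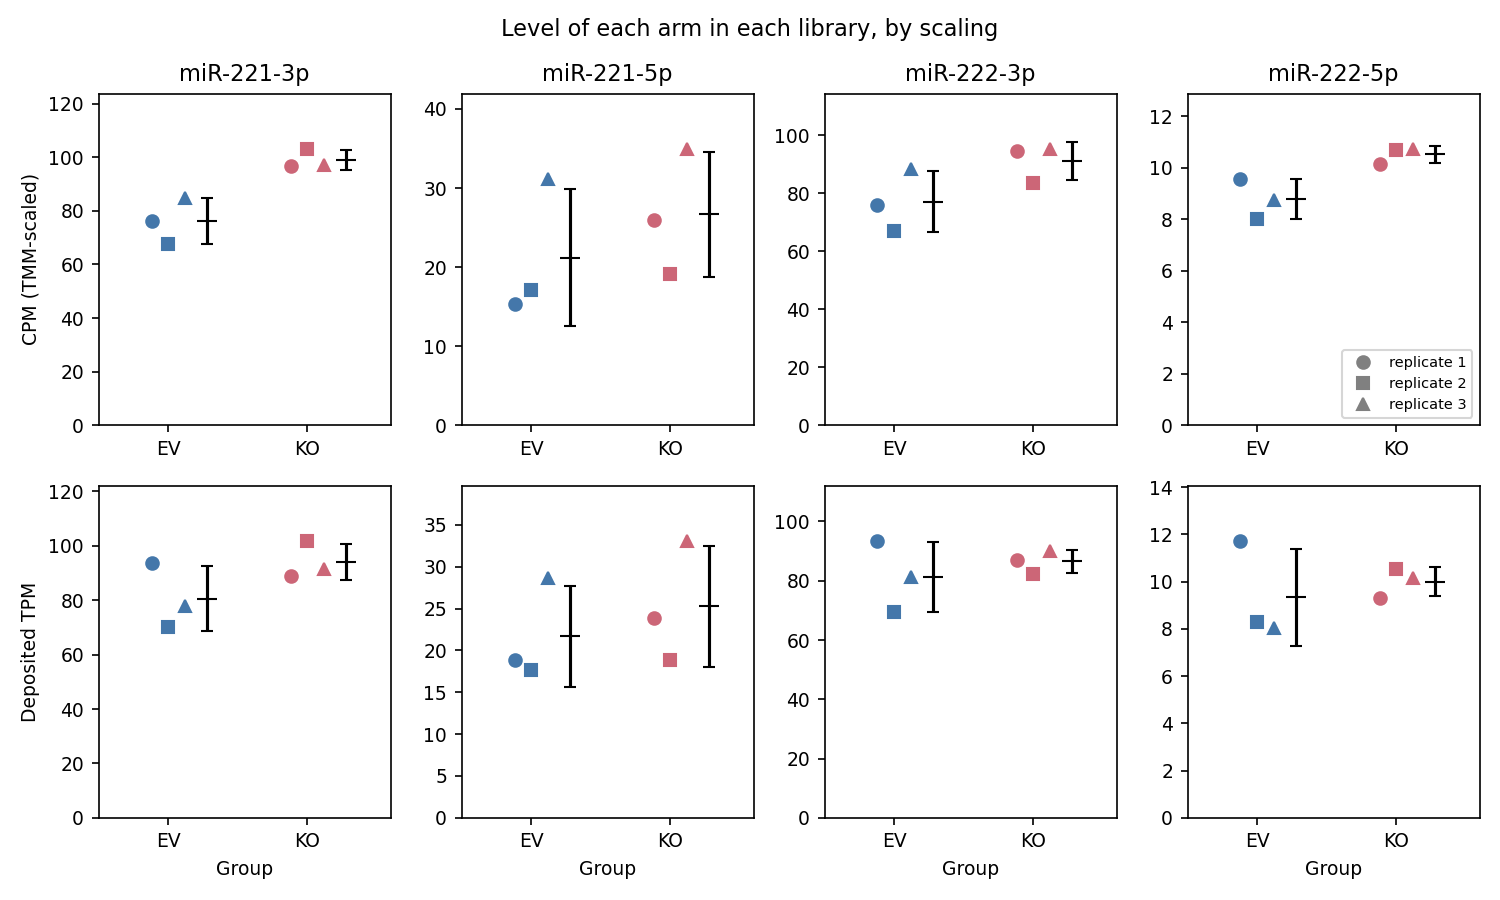
Level of each arm in each library (upper row, CPM with TMM factors; lower row, the authors' TPM), with EV in blue, KO in red, the replicate number by symbol, and the group mean with its SD (n = 3) in black. In CPM the KO values of miR-221-3p and miR-222-5p lie above all EV values, and in TPM the groups of every arm overlap.

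miR-221-3p, the arm with the highest mean, ranked 131 of the 460 tested microRNAs by mean CPM. Its counts were 1198, 830 and 949 for EV and 1192, 1293 and 1184 for KO. These corresponded to 76.3, 67.7 and 84.7 CPM in EV and 96.6, 103 and 97.0 CPM in KO. Every KO library was thus above every EV library. The means were 76.2 ± 8.47 and 98.9 ± 3.66 CPM (SD, n = 3 each), a 1.30-fold difference. The log2 change was 0.38 (SE 0.11, 95% interval 0.14 to 0.61, edgeR adjusted p = 0.0657), close to the threshold and not past it.

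The call on miR-221-3p changed with the tool and with the libraries used. DESeq2 (adjusted p = 0.0126) and limma-voom (adjusted p = 0.0492) each called it and none of the other 3 arms, where they called 5.43% and 5.00% of all tested microRNAs as higher. So did DESeq2 with a local dispersion trend (adjusted p = 0.00264; 8.70% of all called higher) and edgeR on microRNAs with at least 10 CPM in 3 libraries (adjusted p = 0.0240; 9.49%). Without EV 3, the EV library with the most miR-221-3p in CPM, the log2 change was 0.46 (SE 0.10, edgeR adjusted p = 0.0168), and 8.32% of all microRNAs were called higher. Leaving EV 3 out widens the gap by the choice of library. With any other single library left out miR-221-3p was not called, at edgeR adjusted p from 0.119 (without EV 1) to 0.187 (without KO 1). Without EV 2 its log2 change was 0.27 (SE 0.09). Of 17 alternative settings, 11 did not call miR-221-3p. The authors' deposited table, drawn from the same libraries, lists 78 microRNAs with adjusted p up to 0.0488, 42 of them higher in KO. With 1028 microRNAs counted in all, it holds 1 of the 4 arms. There miR-221-3p has mean normalized counts of 1234 in KO and 963 in EV, a log2 change of 0.35 and an adjusted p of 0.00349.

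Without TMM factors the gap was smaller. In the deposited TPM miR-221-3p stood at 93.5, 70.2 and 77.8 for EV and 88.9, 102 and 91.6 for KO. EV 1 was then above KO 1 and KO 3, so the groups overlapped. With library size alone as the scaling, the edgeR log2 change was 0.22 (SE 0.15, adjusted p = 0.397). That scaling also moved the median of all microRNAs to -0.16, and relative to this median miR-221-3p was at 0.39.

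miR-222-3p, which carries the same seed, was about as abundant, at rank 133. Its counts were 1195, 823 and 990 for EV and 1168, 1047 and 1165 for KO. In CPM these were 76.1, 67.2 and 88.3 in EV and 94.7, 83.5 and 95.4 in KO. All EV libraries lay below KO 1 and KO 3, while EV 3 lay above KO 2, so the groups overlapped. The means were 77.2 ± 10.6 and 91.2 ± 6.67 CPM (SD, n = 3 each). The log2 change was 0.24 (SE 0.12, 95% interval -0.03 to 0.51, edgeR adjusted p = 0.263). With library size alone it was 0.09 (SE 0.14), or 0.25 relative to the median of all microRNAs.

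Added together, reads of both 3p arms gave the level of their shared seed. The sums in CPM were 152, 135 and 173 for EV and 191, 187 and 192 for KO. All KO sums were above all EV sums, with means of 153 ± 19.1 and 190 ± 3.05 CPM (SD, n = 3 each), and the EV libraries varied more among themselves. Of single tested microRNAs, 15.2% lay entirely above EV in CPM. In CPM EV 2 was the lowest library for both 3p arms and EV 3 the highest of the EV group. The separation depended on the TMM factors. EV 1 had 2393 of these reads among 12806873, against 2360 among 13412774 in KO 1, 2340 among 12720548 in KO 2 and 2349 among 12919981 in KO 3. Scaled by totals alone, EV 1 was thus above every KO library.

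Of the other strands, miR-222-5p was the least abundant member, at rank 252. Its counts were 150, 98 and 98 for EV and 125, 134 and 131 for KO. In CPM these were 9.55, 8.00 and 8.74 in EV and 10.1, 10.7 and 10.7 in KO, again with every KO value above every EV value. The log2 change was 0.26 (SE 0.14, 95% interval -0.05 to 0.57, edgeR adjusted p = 0.300). In the deposited TPM, where EV 1 had 11.7 and the KO libraries 9.32 to 10.5, the groups overlapped. With library size alone the log2 change of miR-222-5p was 0.10 (SE 0.20, edgeR adjusted p = 0.812), or 0.26 relative to the median of all microRNAs. Its coefficient of variation within a group was 8.88% in EV and 3.15% in KO, no larger than the 9.46% and 8.77% that read counting alone gives.

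In CPM, 2 of the 4 arms (miR-221-3p and miR-222-5p) had KO values that lay entirely above EV, against 15.2% of all tested microRNAs. In the deposited TPM 0 of the 4 did, against 5.43% of all.

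**Figure D2:**
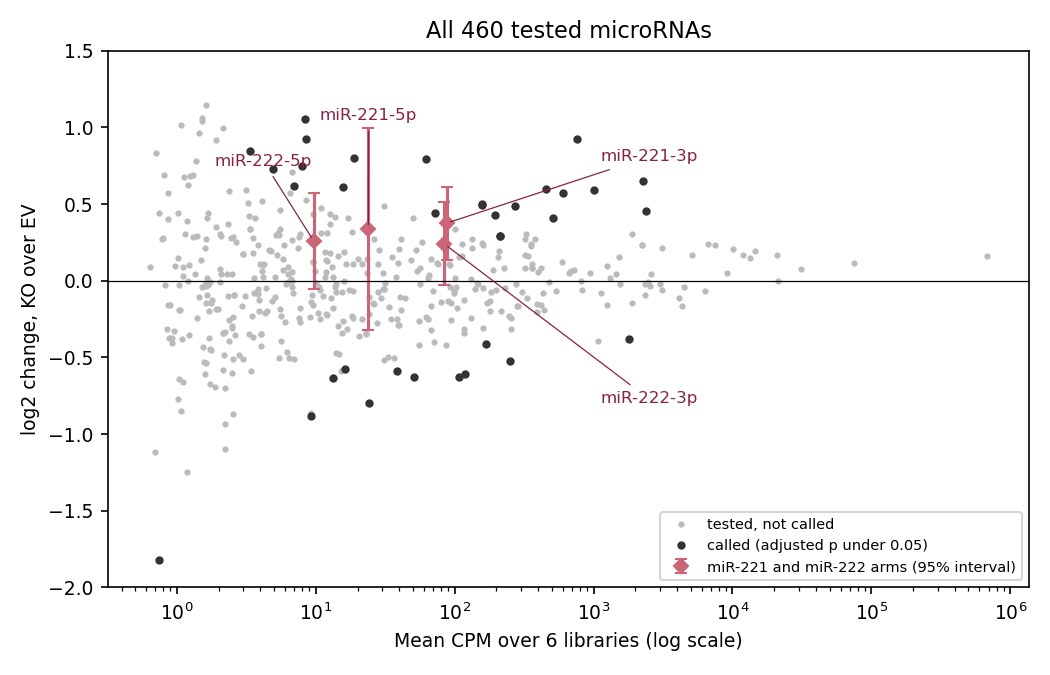
Log2 change of KO over EV against mean CPM (log axis) for the 460 tested microRNAs, called ones in black and the rest in grey, with the 4 arms in red and their 95% intervals. The arms sit between 0.24 and 0.38, above the line at 0, and the interval of miR-221-5p is the widest of the 4.

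miR-221-5p, at rank 192, varied between libraries far more than the other arms did. Its counts were 241, 209 and 349 for EV and 320, 240 and 427 for KO. In CPM these were 15.4, 17.1 and 31.1 in EV and 25.9, 19.1 and 35.0 in KO. EV 3, KO 1 and KO 3 were high and EV 1, EV 2 and KO 2 low, so that the high and low libraries were found in both groups. The coefficient of variation was 40.9% in EV and 29.7% in KO, where read counting alone gives 6.24% and 5.63%. For comparison, miR-221-3p from the same hairpin varied by 11.1% in EV and 3.70% in KO.

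The log2 change of miR-221-5p was 0.34 (SE 0.29, 95% interval -0.32 to 1.00, edgeR adjusted p = 0.530), the widest interval of the 4 arms. With library size alone it was 0.22 (SE 0.26), or 0.38 relative to the median of all microRNAs. The value depended on the libraries. Without KO 3 it was 0.09 (SE 0.31), without EV 1 0.15 (SE 0.31), without EV 2 0.19 (SE 0.34), without KO 1 0.36 (SE 0.35), without KO 2 0.53 (SE 0.29) and without EV 3 0.72 (SE 0.24), none of them called by edgeR. Without EV 3 and KO 2 together it was 0.92 (SE 0.17, edgeR adjusted p = 2.46e-04). In that fit of 2 libraries a group 3 of the 4 arms were called higher, where 11.5% of all microRNAs were. miR-221-3p then stood at 0.43 (SE 0.12), miR-222-3p at 0.41 (SE 0.12), and miR-222-5p at 0.25 (SE 0.21) was not called. For miR-221-5p and miR-222-3p, EV 3 was the highest EV library and KO 2 the lowest KO library in CPM. Leaving both out therefore widens the gap of these arms by the choice of libraries.

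**Figure D3:**
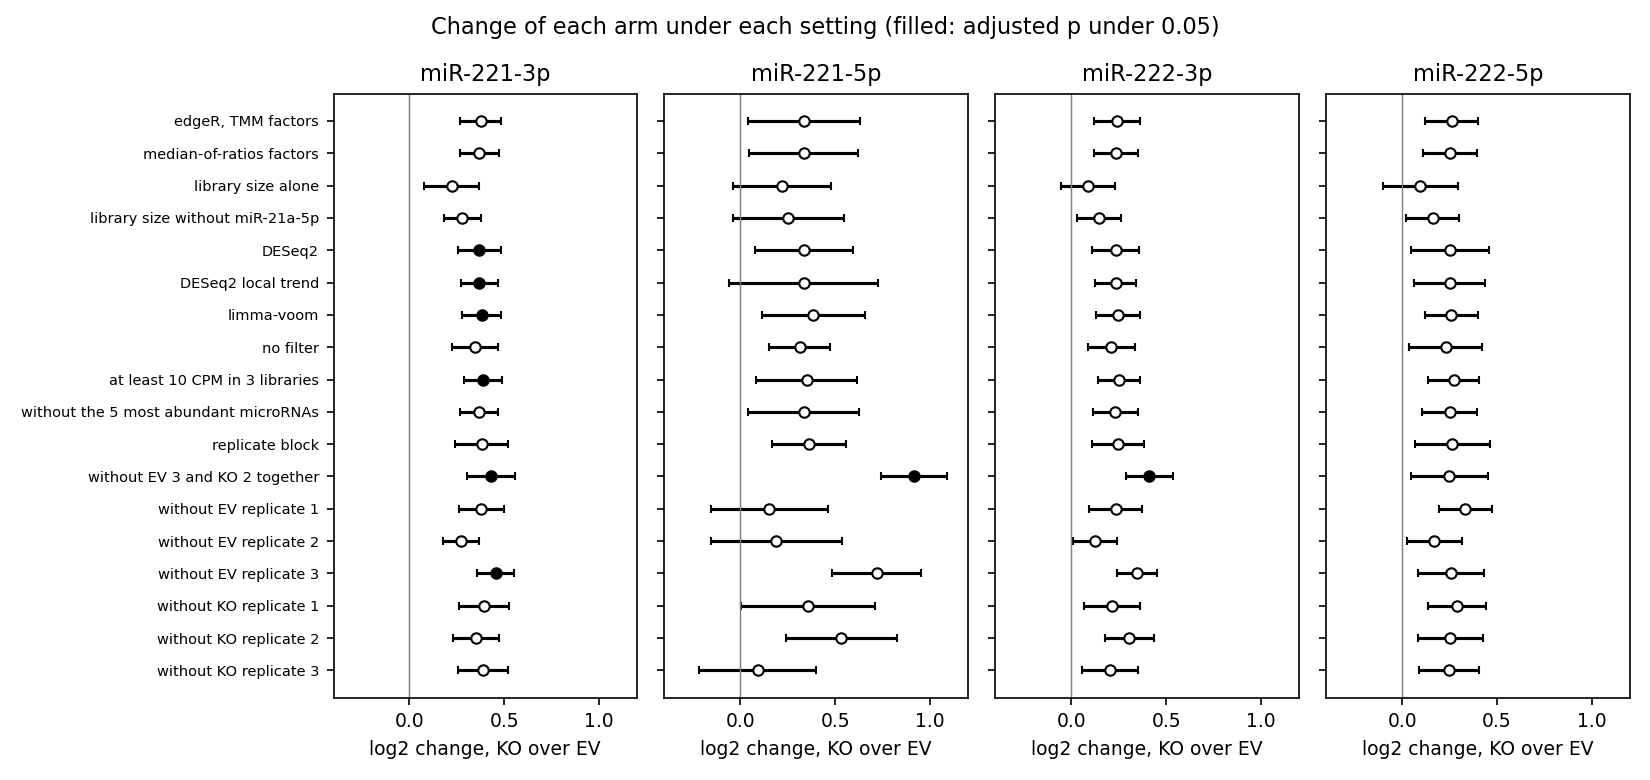
Log2 change of KO over EV (bars, 1 SE) for each arm under each setting, with filled points where the adjusted p was under 0.05. The points of all 4 arms lie above 0 in every setting shown, and those of miR-221-5p spread from 0.09 to 0.92.

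The sign of the change was the same throughout, with 68 of 68 values above 0 over the 4 arms and 17 alternatives. These alternatives reuse the same 6 libraries and the arms share hairpins, so the 68 are not independent.

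The ratio of the arms of a hairpin within a library does not depend on how libraries are scaled. In both hairpins the 3p arm was the more abundant, in all 6 libraries, whereas 58 of 133 hairpins with both arms tested had more 3p than 5p reads. The 3p arm took 88.7% to 91.0% of the reads of the miR-222 hairpin, with exact (Clopper-Pearson) 95% intervals between 86.7% and 92.6%. These intervals cover counting error only, since reads without molecular identifiers are not independent molecules. The miR-222 share was 89.7% ± 1.12 in EV and 89.6% ± 0.870 in KO (SD, n = 3 each).

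In the miR-221 hairpin the 3p share ranged more widely. It was 83.3%, 79.9% and 73.1% for EV and 78.8%, 84.3% and 73.5% for KO. The intervals of EV 3 (70.6% to 75.5%) and EV 1 (81.2% to 85.1%) were well apart, so this difference within 1 group was larger than counting error. Both replicate 3 libraries were low, and the high libraries came from both groups. The 3 libraries with the lower 3p share, EV 3, KO 1 and KO 3, also had the larger miR-21a-5p shares of all counts, at 70.1%, 69.4% and 68.6% against 63.0%, 67.8% and 66.7% in EV 1, EV 2 and KO 2. The part of library composition in the arm ratio was not tested.

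With all 6 libraries, neither difference between the groups was larger than the spread between libraries. The log2 ratio of 3p to 5p counts differed between KO and EV by 0.02 for miR-221 (SE 0.24, 95% interval -0.49 to 0.53, limma adjusted p = 0.985) and by -0.02 for miR-222 (SE 0.17, 95% interval -0.39 to 0.35, limma adjusted p = 0.985). Of the 133 hairpins 0% were called by limma, and 7 had an unadjusted p under 0.05. By an exact two-sided permutation test over libraries p was 0.9 for each, where 3 against 3 cannot go below 0.1. The miR-221 difference turned to -0.22 without EV 3, to -0.23 without KO 2 and to -0.47 without both, none of them called. The last had an SE of 0.17, a limma unadjusted p of 0.00557 and a limma adjusted p of 0.148, so the result depended on these libraries. Over the 6 libraries the SD of this log2 ratio was 0.41 for miR-221 and 0.14 for miR-222, against a median of 0.27 over the 133 hairpins.

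**Figure D4:**
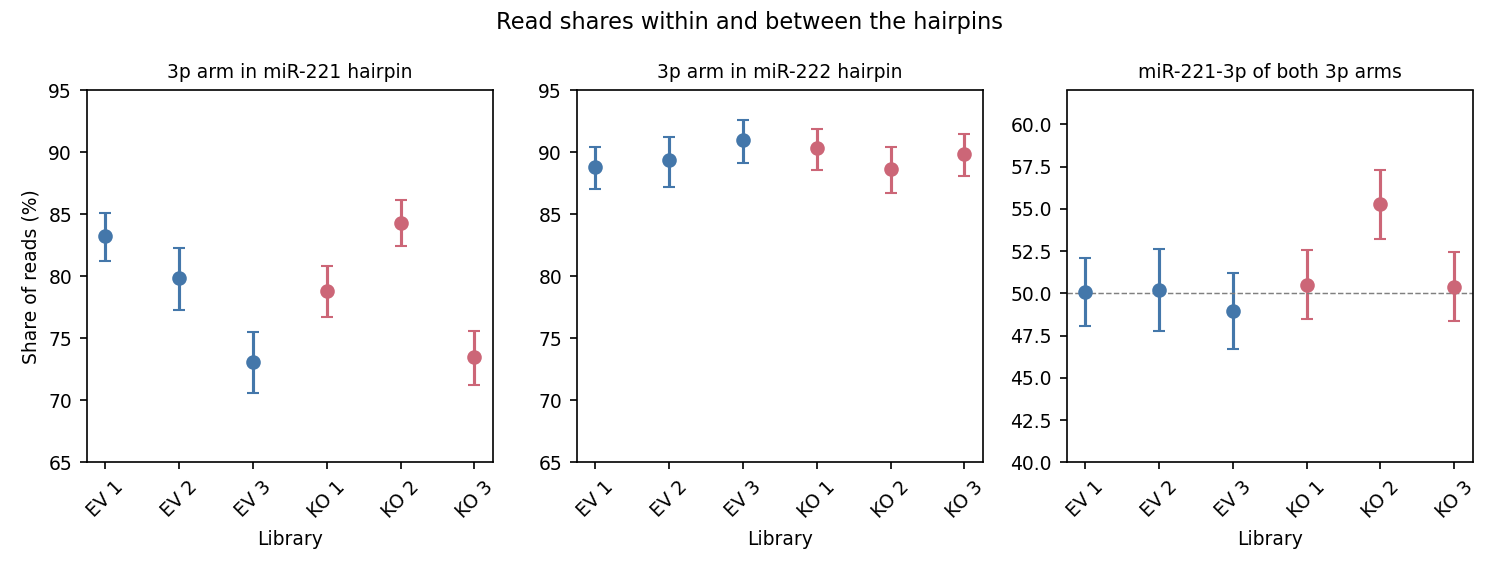
Share of reads in each library with exact 95% intervals (EV in blue, KO in red; the axes do not start at 0): the 3p arm within the miR-221 hairpin, the 3p arm within the miR-222 hairpin, and miR-221-3p among reads of both 3p arms. The first panel spans 73.1% to 84.3% with no separation of the groups, and in the third panel KO 2, at 55.3%, stands above the other libraries.

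The 3p arms were present in nearly equal read numbers. miR-221-3p made up 50.1%, 50.2% and 48.9% of the reads of both 3p arms for EV and 50.5%, 55.3% and 50.4% for KO. The exact 95% intervals held 50% in 5 of the 6 libraries, and that of KO 2 was 53.2% to 57.3%. Ligation during library construction favours some small RNAs over others, so equal reads need not mean equal molecules. The comparison of 1 ratio between libraries is less affected by this.

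The log2 ratio of miR-221-3p to miR-222-3p was higher in KO than in EV by 0.13, and every KO library was above every EV library (exact two-sided permutation p = 0.1, the smallest possible). Most of this gap came from KO 2, and without it the difference was 0.04. For KO 1 and KO 3 the exact intervals of the miR-221-3p share overlapped those of every EV library, so their order was within counting error. KO 2 was the KO library with the most miR-221-3p and the least miR-222-3p in CPM.

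The microRNAs most like each 3p arm over the 6 libraries were found from the root mean square (RMS) difference of centred log2 CPM, among 246 microRNAs outside the cluster with a mean of at least 10 CPM. For miR-221-3p they were miR-501-3p, miR-30d-3p and miR-467a-5p, with RMS differences of 0.0391, 0.0474 and 0.0802, where the median of the 246 was 0.250. For miR-222-3p they were miR-467c-5p, miR-320-3p and miR-16-1-3p, with RMS differences of 0.0414, 0.0669 and 0.0699. The RMS difference between the 3p arms themselves was 0.117, so that 12 of the 246 were closer to miR-221-3p than miR-222-3p was. miR-221-5p was 0.373 from miR-221-3p. Among these neighbours miR-467a-5p was called by edgeR (log2 change 0.29, SE 0.08, adjusted p = 0.0499), where 5.00% of all tested microRNAs were called higher. The neighbours were picked over both groups, so their higher levels in KO follow in part from the pick and are no separate result.

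Other microRNAs tied to the known role of the cluster in smooth muscle were read from a list, with all tested microRNAs as the background. Of 12 microRNAs known for the phenotype of smooth-muscle cells, 11 were tested and 0 were called by edgeR in either direction, where 7.61% of all tested microRNAs were. The median log2 change was 0.16, and 90.9% of the 11 were above 0, against 48.3% of all. Both arms of the miR-143, miR-145a and miR-21a hairpins are among the 11, so these are not independent. With library size alone the median was 0.02, where that of all microRNAs was -0.16, and under both scalings 10 of the 11 were above the median of all. At an unadjusted p under 0.05, 3 were higher in KO (miR-1a-3p, miR-24-3p and miR-26a-5p), against 12.6% of all. Of these miR-1a-3p was at a low level, with means of 0.992 CPM in EV and 2.05 CPM in KO. DESeq2 and limma-voom also called 0 of the 11, and DESeq2 with a local trend called 2 higher, against 8.70% of all. The most abundant was miR-21a-5p, at 0.16 (SE 0.18).

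X-linked microRNAs outside the cluster were listed from RefSeq, which held a mature sequence for 849 of the 1028 counted names, so the list is partial. Of it, 28 were tested, 5 were called higher by edgeR, where 5.00% of all tested microRNAs were, and 0 lower, with a median log2 change of 0.18. miR-532-5p, named after its value was seen, was not on the list although miR-532-3p was, and was called higher at 0.59 (SE 0.08, edgeR adjusted p = 0.00245). The listed ones with the smallest edgeR adjusted p came from another X-linked cluster: miR-322-5p had a log2 change of 0.92 (SE 0.07), miR-322-3p one of 0.45 (SE 0.08), and their neighbour miR-503-5p one of 0.60 (SE 0.07). Of the 28 listed, 82.1% had log2 changes above 0, against 48.3% of all tested. Several of the 28 are arms of 1 hairpin or come from 1 cluster, so they are not independent. With library size alone 15 were above 0, 24 were above the median of all microRNAs, and 1 was called. The 4 arms of miR-221 and miR-222, with a median of 0.30 and 0 called by edgeR, lay within the range of these 28, from -0.37 to 0.92.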

How the data were processed

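Small RNAs of 6 libraries (3 EV, 3 KO) were counted by the authors, and the deposited read counts per mature microRNA were tested as they stand. The deposited TPM are counts scaled to 1000000 per library, per the file headers and values, and were described only. The authors' deposited comparison table holds group means (a signal), log2 fold changes, and p-values. Bowtie, mm10 and DESeq 1.8.3 are named in the submitters' processing notes, while for multiply mapped reads the counting rule was not given in the sources used here. Reads carry no molecular identifiers in the labels' protocols.

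KO was compared with EV over all microRNAs by edgeR 4.0.16 in R 4.3.3 (TMM factors; filterByExpr, minimum count 10 and minimum total 15; quasi-likelihood F test, two-sided; Benjamini-Hochberg at 0.05; called means passed). Standard errors were taken from the log2 change and its F statistic. Arm ratios, with a pseudocount of 0.5, were tested by limma 3.58.1 over 133 hairpins, with a variance trend on the level of the lower arm. Alternatives included DESeq2 1.42.0. Scripts were tested on simulated data. Libraries of a group differed by more than counting noise (chi-square per degree of freedom at least 19.7), so none was treated as a file deposited more than once, which does not show that they came from separate cultures or RNA. RNAfold 2.7.2 folded the hairpins. Sequences came from RefSeq (GRCm38.p6) and gene positions from GENCODE M21 (GRCm38), the assembly of mm10. The named microRNAs were the members, the 3 most like each 3p arm, and up to 3 called members of each list, or otherwise its most abundant one. Others, among them markers, smooth-muscle microRNAs with a low unadjusted p, miR-532-5p and those most like miR-221-5p, were named after their values were seen. Members and lists were chosen with earlier results of these data known. The result of 1 further list is not reported here.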

Additional observations from a re-analysis of the deposited data

How the results depend on the processing

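The 4 arms kept log2 changes above 0 under all 17 alternatives. miR-221-3p passed the threshold with DESeq2 (0.37), DESeq2 with a local trend (0.37), limma-voom (0.38), a 10 CPM filter (0.39), without EV 3 (0.46) and without EV 3 and KO 2 (0.43), and miR-221-5p (0.92) and miR-222-3p (0.41) passed in the last of these. Leaving out 1 library at a time gave 0.27 to 0.46 for miR-221-3p, 0.09 to 0.72 for miR-221-5p, 0.13 to 0.35 for miR-222-3p and 0.17 to 0.33 for miR-222-5p. The number of arms called was 1 with each DESeq2 fit, limma-voom and the 10 CPM filter, 3 without EV 3 and KO 2, and 0 to 1 with 1 library left out. Over all microRNAs 35 of 460 were called, against 5 of 460 with library size alone and 66 of 460 with DESeq2's local trend. The number tested differed in the other fits. There 56 of 1028 were called without the filter, 88 of 470 without EV 3 and KO 2, and 15 to 59 of 475 to 481 with 1 library left out. The cause of these differences was not tested. The 3p to 5p differences reversed without EV 3 and KO 2, to -0.47 for miR-221 and 0.16 for miR-222, and ranged from -0.23 to 0.25 and from -0.0874 to 0.0827 with 1 library left out. The difference of the 3p arms' ratio ranged from 0.04 to 0.18 with 1 library left out, and was 0.02 without EV 3 and KO 2.

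The labels do not say whether same-numbered libraries are paired, and so few libraries cannot settle it. Deviations of same-numbered libraries correlated at 0.30, -0.04 and -0.22, and those of differently numbered ones at -0.49 to 0.43. With the replicate block, log2 changes were 0.38 (SE 0.14) for miR-221-3p, 0.36 (SE 0.20) for miR-221-5p, 0.25 (SE 0.14) for miR-222-3p and 0.26 (SE 0.20) for miR-222-5p. Without the block these SEs were 0.11, 0.29, 0.12 and 0.14. With it 0 arms and 34 microRNAs were called. The arm-ratio differences were 0.02 (SE 0.18) for miR-221 and -0.02 (SE 0.18) for miR-222, and that of the 3p arms was 0.13. With 98 to 150 reads a library, miR-222-5p is the arm that depth limits most.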

Other observations

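The microRNAs most like miR-221-5p over the 6 libraries, looked up after its wide spread had been seen, were miR-7a-5p, miR-362-5p and miR-3535, with RMS differences of 0.170, 0.194 and 0.223 in centred log2 CPM, where the median of the 246 candidates was 0.452. None of the 3 was called by edgeR (log2 changes 0.30, 0.49 and 0.41). These too were picked over both groups, so the shared direction follows in part from the pick. miR-221-5p made up 61.6%, 68.1% and 78.1% of the reads of both 5p arms for EV and 71.9%, 64.2% and 76.5% for KO, in replicate order. The 5p arms thus lacked the near-equal read numbers of the 3p arms.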
